A study of Ditylenchus destructor and Heterodera glycines and Meloidogyne incognita with 162 samples.

Results

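Single 8-cell embryos of *Heterodera glycines*, the soybean cyst nematode, were compared with single 4-cell embryos of the same species, using the 5 libraries of each stage, 10 of the 54 libraries of this species and of the 162 in the series. The series recorded 3 plant-parasitic nematodes at 11 stages from Zygote to L1 by Smart-seq2, which copies polyadenylated RNA into full-length cDNA. The embryos belonged to strain Hg5#, had no treatment, and came from eggs released from mature cysts on infected soybean roots, so the 2 groups differed by label in the number of cells alone. At each stage the authors sampled more embryos than they kept. Whether embryos of 1 stage came from separate cysts is not given in the sources used here, and p-values therefore reflect only how these 5 embryos per stage varied, which may in part be technical. Within whole embryos, fewer cells of a type and less RNA per cell cannot be told apart.

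Early nematode embryos run at first on maternal RNA, which the mother loads into the egg. As cleavage proceeds, this RNA is broken down and the genome of the embryo itself becomes transcribed, a handover known as the maternal-to-zygotic transition. In *Caenorhabditis elegans*, where it has been studied most, transcription by the embryo begins around the 4-cell stage.

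The table holds 18219 genes, given by ID with a contig, a start and an end. The IDs are not paired with gene names in the sources used here, so no function can be attached to any of them and all groups below were formed from expression at other stages or from position. Levels are given as CPM, where all counts of an embryo add up to 1000000 and gene length is not taken into account. They are compared between embryos for the same gene. Where genes are ordered by CPM below, the order also depends on their length. Since the libraries carry no molecular identifiers and no strand information, amplified copies are counted as reads, and reads from overlapping genes on opposite strands could not be told apart.

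Total counts ranged from 750757 to 5826347 at 8-cell and from 3218185 to 10955776 at 4-cell. The shallowest library was 8-cell replicate 3, and the next lowest at that stage held 3183862 counts. Every pair of replicates differed far beyond counting noise, with a chi-square of at least 58.7 per degree of freedom, so no 2 columns were treated as a single library deposited under 2 names.

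The 4-cell embryos were not alike. Replicates 1, 3 and 5 resembled 2-cell embryos most closely, whereas replicate 2 resembled 8-cell embryos most closely and replicate 4 was about equally near to several stages. The measure was the mean Pearson r of log2(CPM + 1) with the libraries of a stage, over the 12018 genes whose mean reached 1 CPM at 8-cell or 4-cell. For 4-cell replicate 2 the mean r was 0.814 with 8-cell embryos and 0.765 with the other 4-cell embryos. Replicate 4 had 0.776 with 8-cell embryos, 0.775 with Zygote embryos and 0.770 with the other 4-cell embryos, values that hardly differ. In replicates 1, 3 and 5 the r with 8-cell embryos was 0.689, 0.736 and 0.704, against 0.770, 0.806 and 0.784 with the other 4-cell embryos, and it reached 0.807, 0.848 and 0.846 with 2-cell embryos. The 8-cell embryos formed a more even group in this respect. Their r with 4-cell embryos lay between 0.694 and 0.783, and was below the r with the other 8-cell embryos (0.739 to 0.801) in all 5. Replicate 3 at 8-cell had an r of 0.753 with 64-78 cell embryos, 0.752 with 24-44 cell embryos and 0.739 with its own stage. What sets 4-cell replicates 2 and 4 apart from the other 3 cannot be told from the sources used here, and each comparison of 8-cell with 4-cell below takes in both kinds of 4-cell embryo. The samples were not regrouped by these values, since that would choose embryos by the outcome.

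**Figure D1:**
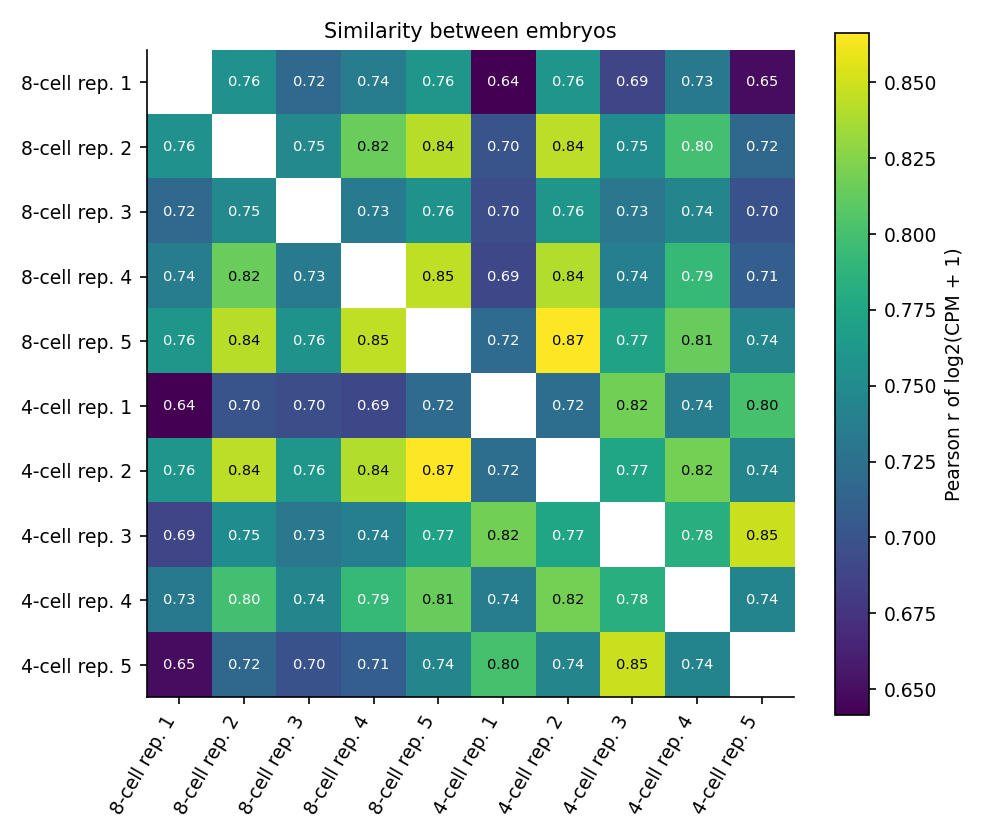
Pearson r of log2(CPM + 1) between each pair of the 10 embryos, printed in each cell, with the 5 8-cell embryos above and left of the 5 4-cell embryos. The highest r, 0.866, joins 4-cell replicate 2 with an 8-cell embryo, and the lowest, 0.642, also joins the 2 stages.

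Embryos of the same stage were slightly more alike than embryos of different stages. The mean r was 0.771 ± 0.0459 (SD over 10 pairs) among 8-cell embryos, 0.779 ± 0.0421 (SD over 10 pairs) among 4-cell embryos and 0.744 ± 0.0579 between the stages. The difference of 0.0312 passed an exact one-sided permutation test of the stage labels (p = 0.0238). It had p = 0.0714 in the same exact permutation test without 4-cell replicate 1, 3 or 5. It also missed the threshold without 8-cell replicate 1 (exact permutation p = 0.0635) and without 8-cell replicate 3 or 4 (p = 0.0556 each).

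The comparison of the number of genes detected turned on the threshold. At 1 CPM, the 8-cell embryos had 8985, 8736, 8305, 8394 and 9214 genes and the 4-cell embryos 8202, 10042, 9057, 7457 and 9205. The 8-cell values lay inside the 4-cell range. The means were 8727 ± 385 genes at 8-cell and 8793 ± 992 genes at 4-cell (SD, n = 5 each), a difference of -65.8 genes (exact two-sided permutation test, p = 0.889, where the smallest p this design allows is 0.00794). At a threshold of 1 count the difference was -1427.8 genes (exact two-sided permutation test, p = 0.0159), and the mean total was lower at 8-cell. Taking a stage mean of 1 CPM or more as expressed, 10771 genes were expressed at 8-cell and 10716 at 4-cell. Of these, 9469 were common to both, which is 87.9% of the 8-cell genes and 88.4% of the 4-cell genes.

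Few genes were on at one stage and off at the other. Of the 18219 genes, 42 had 0 counts in all 5 8-cell libraries and a mean of at least 10 CPM at 4-cell. In the other direction, 8 had 0 counts in all 5 4-cell libraries and a mean of at least 10 CPM at 8-cell. Such a mean can rest on few embryos. With at least 1 CPM in all 5 libraries of the other stage, the numbers were 2 and 1. Mean total counts were 3.58e+06 at 8-cell and 6.52e+06 at 4-cell, so 0 counts came more easily at 8-cell. The part of depth in these numbers was not tested.

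No gene passed the test between the 2 stages. With edgeR's quasi-likelihood test on counts scaled by TMM, 0 of 8061 genes (0%) had a Benjamini-Hochberg adjusted p under 0.05, and the lowest adjusted p was 0.0733. An unadjusted p under 0.05 was reached by 662 genes (8.21%), 249 higher at 8-cell (3.09%) and 413 lower (5.12%). DESeq2, run as an alternative, called 121 genes higher (1.15%) and 374 lower (3.56%) of 10501, and on simulated counts for this comparison 46 of its 168 calls were false. On the same simulated counts 6 of 106 edgeR calls were false. There edgeR recovered 32.5% of genes changed 4-fold, 57.5% of those changed 8-fold and 87.5% of those changed 64-fold. DESeq2 recovered 67.5% of those changed 8-fold and 97.5% of those changed 64-fold. In the real counts HG10758 and HG01762, described below, had log2 fold changes of -9.99 and -9.83 and did not pass edgeR. The simulated recovery may therefore not hold for genes that differ among the 4-cell embryos. The simulated counts took their spread from edgeR's own estimates, the same at both stages. They do not show what share of the DESeq2 calls in the real counts is false. The edgeR count of 0 does not show that levels stayed the same. Without 4-cell replicate 2 edgeR called 130 genes, 25 higher and 105 lower, and without 4-cell replicate 4 it called 104 genes, 3 higher and 101 lower. Leaving out any other single library gave 0 calls. The neighbouring intervals, which share libraries with this one, gave 0 higher and 0 lower genes (0% each) of 8192 at 4-cell against 2-cell in edgeR, where 247 had an unadjusted p under 0.05 and DESeq2 called 68, and 109 higher (1.38%) and 78 lower (0.984%) of 7924 at 24-44 cell against 8-cell.

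The genes with an unadjusted p under 0.05 differed in size by direction. The 413 lower genes had a median log2 fold change (8-cell over 4-cell) of -2.97, and 203 of them (49.2%) lay beyond 8-fold. The 249 higher genes had a median of 1.43, and 45 (18.1%) lay beyond 8-fold. The median mean level of the lower genes was 15.6 CPM at 8-cell and 142 CPM at 4-cell. For the higher genes it was 240 CPM at 8-cell and 84.6 CPM at 4-cell. These genes were picked by the same contrast, so the sizes are a description. Every 8-cell library lay above every 4-cell library in 75 genes (0.93%) and below every 4-cell library in 67 genes (0.831%). Over all genes tested the median log2 fold change was -0.03, with 48.7% above 0 and 51.3% below 0.

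Other stages, measured in other embryos, were used to group the genes. At 24-44 cell against 2-cell, a comparison of 5 embryos each that shares no library with 8-cell against 4-cell, 655 genes rose (7.98%) and 704 fell (8.58%) of 8205 tested (edgeR adjusted p under 0.05). They are called rising and falling genes here. Both 4-cell and 8-cell lie within that interval.

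Falling genes were mostly lower at 8-cell than at 4-cell, though none passed the test singly. Of the 704 falling genes, 596 passed the filter on low counts, and 507 of these (85.1%) had a negative log2 fold change at 8-cell against 4-cell. Over all 8061 genes this share was 51.3%. Their median log2 fold change was -1.02, with 25% of them below -3.05, against -0.03 over all genes. An unadjusted p under 0.05 was reached by 214 falling genes in the lower direction (35.9%, against 5.12% of all genes) and by 1 in the higher. These 214 made up 51.8% of all genes that were lower at that threshold. The median was -0.63, with 78.4% below 0, after all libraries were thinned to the smallest total, which left 468 falling genes in the test. Leaving out single libraries gave medians from -1.38 without 4-cell replicate 2 to -0.94 without 4-cell replicate 5. The other 108 falling genes had too few counts in too many of the 10 libraries to be tested.

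Rising genes showed the opposite, with smaller steps. Of 655 rising genes, 608 were tested and 500 (82.2%) had a positive log2 fold change at 8-cell against 4-cell, against 48.7% of all genes. Their median was 0.48. Leaving out single libraries gave medians from 0.34 without 8-cell replicate 3, where 68.7% were above 0, to 0.54 without 8-cell replicate 2. An unadjusted p under 0.05 in the higher direction was reached by 97 of them (15.95%, against 3.09% of all genes), which is 39.0% of all genes higher at that threshold, and 0 were lower at it. In 30 rising genes (4.93%, against 0.93% of all genes tested) every 8-cell embryo was above every 4-cell embryo. In 21 falling genes (3.52%, against 0.831% of all genes tested) every 8-cell embryo was below every 4-cell embryo.

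**Figure D2:**
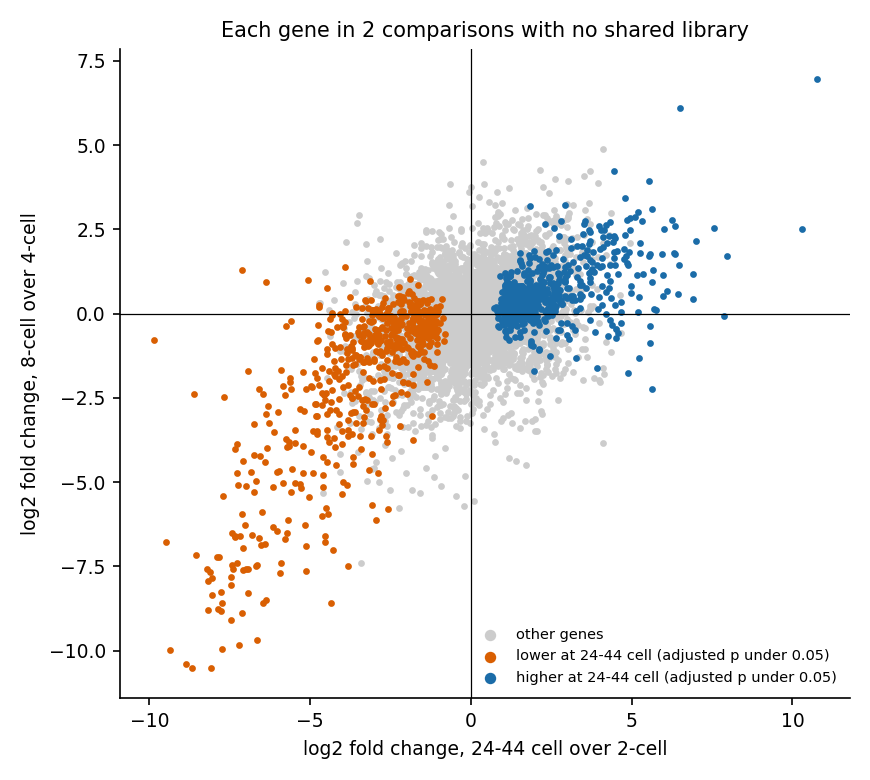
Log2 fold change of each gene at 8-cell over 4-cell (vertical axis) against that at 24-44 cell over 2-cell (horizontal axis), for 7438 genes tested in both, with falling genes in orange, rising genes in blue and the rest in grey. Of all points 64.2% have the same sign on both axes, and the falling genes reach farther from 0 on the vertical axis than the rising genes.

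Across the 7438 genes tested in both comparisons, the 2 log2 fold changes had a Pearson r of 0.57 and the same sign in 64.2% of genes. Among the 1204 genes that rose or fell between 2-cell and 24-44 cell the same sign was found in 83.6%. These values are taken across genes, which share the libraries of each comparison and are not independent replicates.

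The share of counts taken up by falling genes split the 4-cell embryos into a high and a low set. The 8-cell embryos gave 6.10%, 8.55%, 6.36%, 8.73% and 9.25% of their counts to the 704 falling genes in the order of their replicate numbers. The 4-cell embryos gave 26.4%, 8.98%, 24.0%, 11.2% and 32.7%. Replicates 1, 3 and 5 at 4-cell thus lay within the range of the 2-cell embryos (22.6% to 38.6%), while replicate 2 lay inside the 8-cell range and replicate 4 just above it. A low share also occurred earlier, since the Zygote embryos gave 11.5%, 13.0%, 23.2%, 11.95% and 19.6%, and 4-cell replicate 4 was close to 3 of these too. At 24-44 cell the share was 2.27% to 3.75%, below every 8-cell embryo. Since 2-cell and 24-44 cell served to choose these genes, a high share at the first and a low share at the second were built in. The number of falling genes at 10 CPM or more showed the same division. It was 364 to 433 at 8-cell, and 667, 456, 681, 433 and 688 at 4-cell, against 679 to 696 at 2-cell.

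Rising genes divided the embryos differently. They held 23.1%, 18.5%, 25.3%, 16.7% and 16.8% of the counts of the 8-cell embryos, and 11.7%, 17.3%, 13.1%, 13.6% and 10.7% of those of the 4-cell embryos. The stages met at 4-cell replicate 2, which lay above 8-cell replicates 4 and 5. At 2-cell the share was 10.4% to 11.7%, so 4-cell replicates 2, 3 and 4 were above every 2-cell embryo, replicate 1 was level with the highest of them and replicate 5 was inside their range. Replicate 4 at 4-cell therefore combined a falling share near that of 8-cell embryos with a rising share that was below all of them. The 2 highest rising shares at 8-cell belonged to replicates 1 and 3, which also had the lowest falling shares. In the paper, the 8-cell libraries numbered 1 and 3 had the lowest alignment rates of that stage. Whether its numbers match the replicate numbers is not stated, and the part of alignment in these shares was not tested. At 24-44 cell the rising share was 29.9% to 37.9%, above all 10 embryos. The low share at 2-cell and the high share at 24-44 cell were built in by the choice of these genes. All shares of a library are parts of the same total, so a low falling share by itself raises the rising share. The falling share of 4-cell replicates 2 and 4 was below that of every 2-cell embryo. The part of this in the differences in rising share was not tested.

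**Figure D3:**
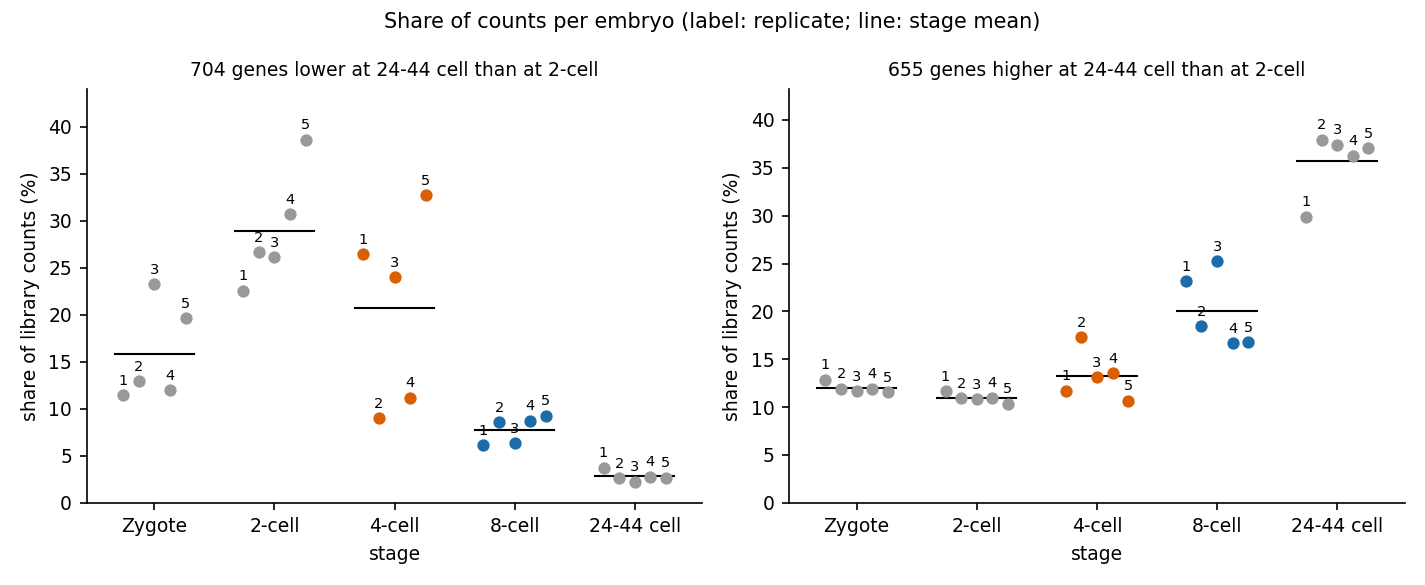
Share of library counts (%) in falling genes (left) and rising genes (right) for each embryo from Zygote to 24-44 cell, with the replicate number above each point, the stage mean as a line, and 4-cell and 8-cell in colour. In the left plot 4-cell replicates 2 and 4 (8.98% and 11.2%) stand near the 8-cell embryos and replicates 1, 3 and 5 (24.0% to 32.7%) near the 2-cell embryos.

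Stricter classes made the division plainer. Cleared genes were defined by a mean of at least 10 CPM at Zygote and at 2-cell and a mean under 1 CPM at 24-44 cell and at 64-78 cell, which gave 32 genes. Of these, 3, 3, 0, 2 and 5 stood at 10 CPM or more in the 8-cell embryos and 24, 3, 26, 6 and 30 in the 4-cell embryos. No 4-cell embryo lay between 6 and 24. The Zygote embryos had 7, 8, 27, 6 and 28, so a low count of these genes occurred there as well. All 2-cell embryos had 23 to 30. The definition used both of these stages. The median level of the 32 genes was 0 CPM in every 8-cell embryo, and 42.0, 0.226, 42.1, 0.0602 and 51.2 CPM in the 4-cell embryos. Only 9 cleared genes passed the filter. All 9 had a negative log2 fold change (51.3% of all genes tested), with a median of -2.98 against -0.03 over all genes. In that direction 5 reached an unadjusted p under 0.05 (5.12% of all genes tested). With a class median of 0 CPM at 8-cell, members could pass the filter chiefly through their 4-cell counts. The filter thus favoured a negative sign, and these values are a description only.

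Gastrulation-onset genes had a mean under 1 CPM at Zygote and at 2-cell and at least 10 CPM at 24-44 cell and at 64-78 cell, which gave 59 genes. At 10 CPM or more, 11, 10, 12, 9 and 10 of them were found in the 8-cell embryos and 5, 13, 6, 2 and 2 in the 4-cell embryos. At Zygote and 2-cell no embryo had any, and the 24-44 cell embryos had 28 to 42, but the definition used all of these stages. The 8-cell embryos were thus close to each other and above 4 of the 5 4-cell embryos, and 4-cell replicate 2 was above all of them. In counts, the 59 genes made up 0.0247% to 0.0806% of an 8-cell library and 0.00453% to 0.0392% of a 4-cell library, so they remained scarce. Of the 59, 17 were tested, 13 of them (76.5%, against 48.7% of all genes tested) with a positive log2 fold change, and the median was 0.67. Of these 17, 2 (11.8%, against 3.09% of all genes tested) were higher at an unadjusted p under 0.05. These genes could pass the filter chiefly through the stage where they were higher, so the signs are a description.

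**Figure D4:**
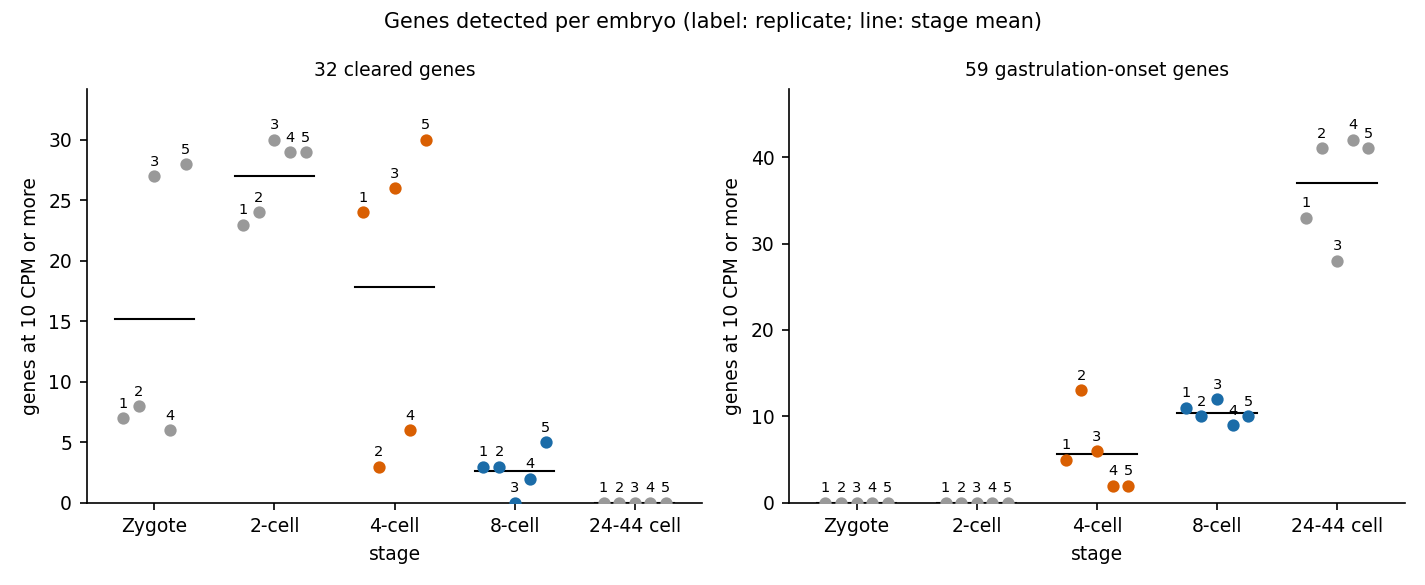
Number of cleared genes (left, of 32) and gastrulation-onset genes (right, of 59) at 10 CPM or more in each embryo from Zygote to 24-44 cell, with replicate numbers above the points and stage means as lines. The 8-cell embryos hold 0 to 5 cleared genes and 9 to 12 onset genes, and the 4-cell embryos 3 to 30 and 2 to 13.

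Most of the RNA at both stages came from genes already present at Zygote and 2-cell. The 6125 genes whose mean reached 10 CPM at both of those stages held 93.6% to 95.8% of counts at 8-cell and 95.1% to 96.8% at 4-cell. Within this class 3201 of 5973 tested genes (53.6%) had a negative log2 fold change, close to the 51.3% of all genes tested, with a median of -0.06. By contrast 7332 genes had a mean under 1 CPM at Zygote and at 2-cell. They held 1.16%, 0.493%, 0.562%, 0.446% and 0.407% of counts in the 8-cell embryos and 0.391%, 0.550%, 0.281%, 0.250% and 0.349% in the 4-cell embryos. Replicate 1 at 8-cell stood above the other 9 embryos, with 313 of these genes at 10 CPM or more against 96 to 141 in the other 8-cell embryos and 65 to 100 in the 4-cell embryos. Only 90 of the 7332 were tested, 60 of them (66.7%, against 48.7% of all genes tested) with a positive log2 fold change. These 90 could also pass the filter chiefly through the stage where they were higher.

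The 2 genes with the strongest evidence for a lower level at 8-cell, chosen by the smallest unadjusted p among genes whose stages did not overlap, were both falling genes. The first was HG10758 on contig_155 from 1323507 to 1324571, minus strand. It had 0, 0, 2.66, 0.343 and 3.44 CPM in the 8-cell embryos, against 1197, 6.11, 1016, 9.63 and 1988 CPM in the 4-cell embryos. The stages did not overlap, but 4-cell replicates 2 and 4 were within a few CPM of the 8-cell embryos while the other 3 exceeded 1000 CPM. Its log2 fold change was -9.99 (standard error 1.73, edgeR unadjusted p = 3.29e-05, adjusted p = 0.0733). In 2-cell embryos it ranged from 287 to 3145 CPM and in Zygote embryos from 0.914 to 1187 CPM, whereas at 24-44 cell it was at most 4.74 CPM. Its log2 fold change at 24-44 cell against 2-cell was -9.35 (standard error 0.97, edgeR adjusted p = 6.99e-06), so HG10758 fell over that interval.

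The second, HG01762, lies on contig_025 from 358652 to 363667 on the minus strand. It had 0, 0, 2.66, 0 and 2.01 CPM in the 8-cell embryos and 634, 4.53, 722, 6.02 and 892 CPM in the 4-cell embryos. The same 3 4-cell embryos were high and the same 2 were low. Its log2 fold change was -9.83 (standard error 1.72, edgeR adjusted p = 0.0733). All 2-cell embryos held 257 to 883 CPM of HG01762 and all 24-44 cell embryos 0 to 8.16 CPM, and HG01762 fell over that interval with a log2 fold change of -7.23 (edgeR adjusted p = 1.12e-05). No 8-cell library held more than 12 counts of HG10758 or 7 counts of HG01762.

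The 2 genes with the strongest evidence for a higher level at 8-cell were rising genes. HG02535 lies on contig_034 from 88245 to 94784, minus strand. It had 920, 279, 523, 181 and 297 CPM in the 8-cell embryos, against 47.9, 37.6, 40.4, 95.1 and 7.03 CPM in the 4-cell embryos. Every 8-cell embryo was above every 4-cell embryo, and the 4-cell embryos did not divide into the sets seen for the falling genes. The log2 fold change of HG02535 was 3.20 (standard error 0.60, edgeR unadjusted p = 8.11e-05, adjusted p = 0.0782). Over development the median of HG02535 was 85.3 CPM at Zygote, 52.5 at 2-cell, 40.4 at 4-cell, 297 at 8-cell, 213 at 24-44 cell, 9.97 at 64-78 cell, 34.5 at Comma and 0.831 at L1. The Zygote embryos ranged from 0 to 483 CPM and the Comma embryos from 4.16 to 116 CPM.

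HG01435, on the plus strand of contig_023 from 548221 to 555471, had 834, 131, 149, 197 and 207 CPM in the 8-cell embryos and 11.7, 77.6, 42.6, 9.63 and 15.1 CPM in the 4-cell embryos. The 8-cell embryos were again all above the 4-cell embryos, and replicate 1 stood well above the other 4 embryos of its stage. The log2 fold change of HG01435 was 3.24 (standard error 0.68, edgeR adjusted p = 0.0782). At 24-44 cell against 2-cell it rose, with a log2 fold change of 2.92 and a standard error of 0.49 (edgeR adjusted p = 0.00057), with a median of 429 CPM at 24-44 cell and 51.6 CPM at 64-78 cell. None of the 4 genes overlapped another gene in the table. Near-identical copies elsewhere in the genome could share reads with any of them, which could not be checked here.

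**Figure D5:**
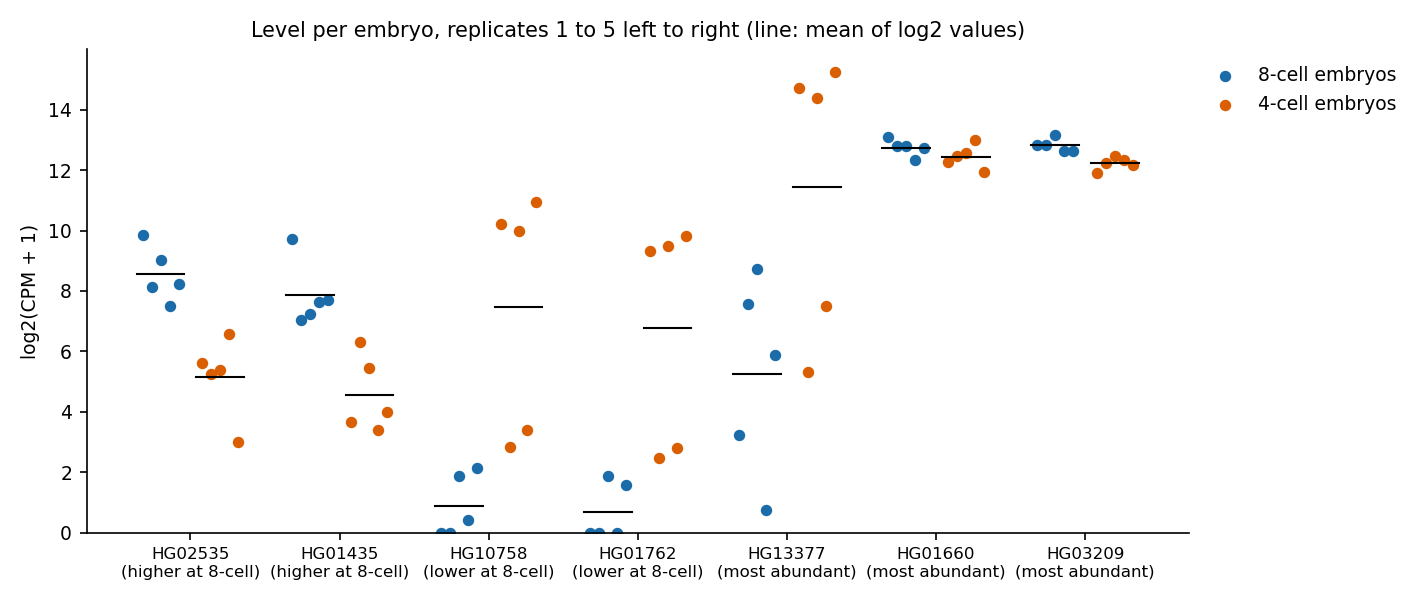
Level of 7 genes in each embryo as log2(CPM + 1), with 8-cell embryos in blue left of 4-cell embryos in orange, replicates 1 to 5 from left to right and the mean of the log2 values as a line. In HG10758, HG01762 and HG13377 the 4-cell embryos form 3 high and 2 low points, whereas HG01660 and HG03209 differ little among embryos.

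The 3 genes of highest mean CPM over the 10 embryos included 1 that owed its place to 3 of the 4-cell embryos and averaged 136 CPM at 8-cell and 17470 CPM at 4-cell. HG13377, a falling gene on contig_185 from 1645561 to 1652387 on the minus strand, had 8.48, 190, 424, 0.687 and 58.4 CPM in the 8-cell embryos. In the 4-cell embryos it had 27087, 39.2, 21441, 181 and 38602 CPM. Replicates 2 and 4 lay inside the 8-cell range. Its log2 fold change was -7.21 (standard error 1.84), and it did not pass the test (edgeR adjusted p = 0.132). At 2-cell it stood at 18898 to 58698 CPM and at 24-44 cell at 75.1 to 207 CPM, where HG13377 fell with a log2 fold change of -7.89 (edgeR adjusted p = 7.83e-08).

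The other 2 of these genes varied less between embryos. HG01660, on contig_024 from 1607823 to 1608496 on the minus strand, had 6971 ± 1278 CPM at 8-cell and 5730 ± 1576 CPM at 4-cell (SD, n = 5 each). Its log2 fold change was 0.17 with a standard error of 0.33 (edgeR adjusted p = 0.957). HG03209, a rising gene on the plus strand of contig_043 from 25223 to 28225, had 7287 ± 1161 CPM at 8-cell and 4817 ± 672 CPM at 4-cell (SD, n = 5 each). The lowest 8-cell embryo (6334 CPM) was above the highest 4-cell embryo (5626 CPM), and its log2 fold change was 0.47 with a standard error of 0.33 (edgeR adjusted p = 0.787). HG03209 then stood at 12285 to 19212 CPM at 24-44 cell.

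The share of the 10 most abundant genes of each library followed the division at 4-cell. It was 4.40%, 3.44%, 4.44%, 3.21% and 3.35% of counts in the 8-cell embryos and 8.87%, 3.02%, 8.36%, 3.24% and 13.1% in the 4-cell embryos. The means were 3.77% ± 0.602 at 8-cell and 7.31% ± 4.24 at 4-cell (SD, n = 5 each), and the difference of -3.54 percentage points did not pass the test (exact two-sided permutation test, p = 0.159). Without 4-cell replicate 2 the difference was -4.62 percentage points (exact permutation p = 0.0397). No other omission of a single library passed (exact two-sided permutation test, p = 0.0556 to 0.270). The lowest of these came without 4-cell replicate 4 and the highest without 4-cell replicate 5. Of the 100 genes with the highest mean CPM at each stage, 58 were common to both.

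The spread between embryos was given by the SD of log2(CPM + 1) for each gene. Over all genes tested, its median was 1.24 at 8-cell and 1.03 at 4-cell. It was 1.31 at 8-cell and 1.02 at 4-cell for falling genes, and 0.80 at 8-cell and 0.75 at 4-cell for rising genes. In cleared genes that were tested it was 1.77 at 8-cell and 2.00 at 4-cell. Mean total counts were lower at 8-cell, and falling genes stood at lower levels there. The part of depth and level in these SDs was not tested, so they do not show that 8-cell embryos were the more variable group. The share of counts in falling genes varied more at 4-cell, from 8.98% to 32.7%, than at 8-cell, from 6.10% to 9.25%.

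Gene span, the distance from start to end with introns included, went along with direction. The genes tested were put into 5 span classes of nearly equal size. In the shortest class, from 156 to 1360 bases, 116 of 1615 (7.18%) were lower at 8-cell at an unadjusted p under 0.05 and 26 (1.61%) were higher, with a median log2 fold change of -0.18. The longest class, from 5616 to 69981 bases, held 69 lower (4.28%) and 59 higher genes (3.66%) of 1612, with a median of 0.06. These shares are to be read beside 5.12% lower and 3.09% higher over all genes. The median level of the shortest class, 45.0 CPM, was also the lowest of the 5, whose other medians were 54.2 to 74.0 CPM, and the part of level in the difference was not tested.

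Position was described by contig and by neighbouring genes. On the 46 contigs with at least 50 genes tested, the share of genes lower at 8-cell at an unadjusted p under 0.05 ranged from 0% to 12.7%. That of higher genes ranged from 0% to 11.3%, against 5.12% lower and 3.09% higher over all genes tested. The highest shares rest on few genes, 7 of 55 on contig_140 (lower) and 9 of 80 on contig_144 (higher). Medians of the log2 fold change by contig ran from -0.33 to 0.31. Of the 413 lower genes, 32 (7.75%) lay directly beside another lower gene on their contig, against 5.97% of all genes tested that had a lower gene as a neighbour. For the 249 higher genes the number was 21 (8.43%, against 4.14% of all genes tested). These differences were not tested.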

How the data were processed

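Single embryos were lysed and amplified with Smart-seq2 and sequenced as paired ends, without strand information or molecular identifiers. Before deposit the authors used fastp (version 0.20.1) for trimming, HISAT2 for alignment and HTSeq for counting, so that the deposited values are raw whole-number counts of each gene. The H. glycines genome build is not given in the sources used here. Only the H. glycines table was analysed. Groups came from sample titles.

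Members, classes and rules were chosen with earlier results of these data known. The quasi-likelihood test of edgeR (version 4.0.16, R version 4.3.3) followed TMM scaling and the filterByExpr filter on low counts, with Benjamini-Hochberg adjustment over all genes tested. The standard error is the log2 fold change over the root of F. DESeq2 (version 1.42.0) was an alternative. Other calculations used Python (version 3.11.15).

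Named genes were at most 2 per direction, since the IDs carry no names. They needed every library of a stage above every library of the other, and a mean of 10 CPM or more where they were higher, and were ranked by fold change among genes past an adjusted p of 0.05 or, as no gene passed, by unadjusted p. The 3 genes of highest mean CPM were added.

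The test was checked on simulated counts with 200 changed genes, 40 per size. Total counts per library were 750757 to 10955776. Alternatives were a block for the replicate number, RLE factors, unfiltered counts, 1 fit to all libraries with 2 near-identical Moving columns (17 genes differed) counted once, thinning to 750757 counts, a 2-fold minimum, other thresholds and pseudocounts, and omission of each library.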

Additional observations from a re-analysis of the deposited data

Results flagged for a closer look

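Of 32 sets of 5 embryos, 3 held a value far from the other 4 by Dixon's ratio, a ratio that chance alone puts past its limit in about 1 set in 20. All 3 were in 8-cell replicate 1. In that embryo the genes present at Zygote and 2-cell held 93.6% of counts, against 95.5% to 95.8% in the other 8-cell embryos (ratio 0.875). The genes low at Zygote and 2-cell held 1.16%, against 0.407% to 0.562% (ratio 0.796). HG01435 stood at 834 CPM, against 131 to 207 CPM (ratio 0.892), and without this replicate its log2 fold change at 8-cell against 4-cell was 2.39. Both shares are parts of the counts of the same embryo and so are not independent. HG01435 was picked by 8-cell against 4-cell itself.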

How the results depend on the processing

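The count of genes called at 8-cell against 4-cell stayed at 0 with RLE factors and with thinning to the smallest total. A 2-fold minimum could not give another value. The count was 495 with DESeq2, 237 with no filter on low counts and 215 with all H. glycines libraries in 1 fit. Leaving out each library in turn gave 0 to 130 genes. Falling genes made up 201 of 374 lower calls and rising genes 27 of 121 higher calls with DESeq2. The numbers were 183 of 216 and 16 of 21 with no filter, and 146 of 198 and 5 of 17 with all libraries. In these fits 704 falling and 654 or 655 rising genes were among the 15558 to 15576 fitted. DESeq2 gave an adjusted p to only 10501 of its 15558 genes. Without 4-cell replicate 2 the numbers were 96 of 105 and 20 of 25 (646 falling and 616 rising genes of 8440 tested). Without 4-cell replicate 4 they were 91 of 101 and 3 of 3 (644 falling and 620 rising genes of 8646). With the replicate number as a block 46 genes were called, 3 higher and 43 lower. The numbers are not stated to pair samples, and same-numbered embryos deviated together by an r of only 0.00507 to 0.0710, with 1 of 5 8-cell embryos closest to its own number. At 24-44 cell against 2-cell the calls were 1359, and 1197 to 1460 without each library, 1219 with the block and 2893 with DESeq2. DESeq2 called 877 genes in place of 187 at 24-44 cell against 8-cell and 68 in place of 0 at 4-cell against 2-cell. These alternatives for the neighbouring intervals were chosen after seeing the data. The cause of these shifts was not tested. The median log2 fold change of falling genes stayed negative (-1.56 to -0.63) and that of rising genes positive (0.34 to 0.54) in all 17 fits, with the falling value nearest 0 after thinning and the rising value nearest 0 without 8-cell replicate 3. For genes detected at 1 count or more the difference between 8-cell and 4-cell was -1427.8 (exact permutation p = 0.0159), and with all libraries thinned to 1 total the difference at 1 CPM was -288.6 (exact permutation p = 0.532). Without each library the difference at 1 CPM ran from -399.7 to 246.6. The share of the 10 most abundant genes differed by -4.62 to -2.10 percentage points and the similarity difference was 0.0190 to 0.0525 without each library. The 7 named genes kept their direction in every alternative that fitted them, which for HG10758 and HG01762 did not include thinning. Dropping 4-cell replicates 2 and 4 together was not run, since it would choose embryos by the outcome.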
